A study of Canis lupus familiaris with 10 samples.

Results

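The T cell receptor (TCR) chains and their CD3 partners were examined in canine cutaneous histiocytoma (CCH), a skin tumor of dogs that arises from Langerhans cells, the antigen-presenting cells of the epidermis, and usually regresses while lymphocytes move in. The 6 genes CD3D, CD3E, CD3G, CD247, TRAC and TRBC were taken by name from the 800 genes of the nCounter Canine IO Panel, an assay that counts color-coded barcodes on hybridized probes without amplification. Transcripts were counted in formalin-fixed, paraffin-embedded (FFPE) tumors, with 5 early tumors (Cockerell and Slauson group 1) and 5 late tumors (group 3), each from a different privately owned dog and none pooled. The comparison asked how expression differed between tumor stages. The labels describe all late tumors, and none of the early ones, as lymphocyte enriched, so this property and the stage cannot be told apart. No treatment or genotype is given for either stage. The early dogs were 0.5 to 5.0 years old, with the age of 1 dog missing, and the late dogs 1.5 to 9.0 years, of various breeds. Males made up 3 of the early dogs, with the sex of 1 missing, and 4 of the late dogs.

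The values are normalized counts, scaled by the authors to the panel's positive control probes and then to housekeeping genes. Recovered barcode counts summed to 484696 to 823763 per early tumor and 945399 to 1253083 per late tumor. The background of a tumor, set as the mean plus 2 SD of its 8 negative control probes, lay at 21.8 to 38.2 normalized counts in early and 19.2 to 26.9 in late tumors. DV200, the percentage of longer RNA fragments and so a measure of RNA quality, was 64.5 to 71.2% in early and 71.2 to 75.8% in late tumors. The ratio of the 2 highest positive control probes was 2.09 to 2.17 in early and 2.72 to 2.84 in late tumors. By the study's sample sheets each stage ran on a cartridge of its own and no RNA extraction batch held both stages, so cartridge, extraction and stage cannot be told apart. CD207 (langerin), which defines Langerhans cells, was above background in 1 early and 1 late tumor, so the labeled tumor type could not be checked by this gene.

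The TCR of most T cells is a pair of alpha and beta chains, whose constant regions are encoded by TRAC and TRBC. The pair recognizes a peptide held by an MHC molecule but has almost no tail inside the cell. Signaling is left to the CD3 chains, which join as CD3 gamma with epsilon (CD3G, CD3E) and CD3 delta with epsilon (CD3D, CD3E), and to a dimer of the zeta chain, CD247. The chains are assembled together before they reach the surface, and CD247 is also used by receptors of natural killer (NK) cells. In a bulk tumor sample, fewer T cells and less of these RNAs per T cell cannot be told apart.

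All 6 chains were lower in early than in late CCH, and in each of them every early tumor lay below every late tumor. A complete separation with late above early was found for 19.2% of the 761 genes tested, and one with early above late for 5.39%. On the log2(normalized count + 1) scale, 5 chains were 5.69-fold (CD3G) to 9.04-fold (CD3E) higher in late tumors, all of which carry the lymphocyte enriched label. Without early 1 the log2FC was smaller, -2.25 for CD3E, -2.12 for CD3D, -1.85 for CD3G, -2.30 for TRAC and -2.49 for TRBC. The fold of CD247 has no firm size, since only 2 of 5 early tumors were above background for it. Their median log2 fold change (log2FC, early minus late) was -2.94, against -0.18 for all tested genes. With limma and Benjamini-Hochberg (BH) adjustment over all tested genes, 6 of 6 chains passed an adjusted p of 0.05, a result that 27.3% of tested genes reached with higher values in late tumors and 8.41% with higher values in early tumors. Calls here needed both a 2-fold difference and an adjusted p no higher than 0.05 by the stricter Benjamini-Yekutieli (BY) method, and by that rule 1 of 6 chains was called, CD247. It called 11.2% of tested genes, 9.2% as higher in late and 1.97% as higher in early tumors. The study, also with BY adjustment and a 2-fold limit, reported no differentially expressed gene between these stages by nCounter. Its test was that of the nSolver Advanced Analysis plug-in and not limma, and the reason for the difference was not tested. When each tumor was left out in turn, CD247 stayed called in 3 of 10 fits, and with DV200 as a covariate none of the 6 chains passed either rule, with log2FC from -1.52 (CD247, SE 0.63) to -2.36 (TRBC, SE 1.14).

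TRAC, the alpha chain constant region, was at 24.3, 122, 464, 348 and 64.4 normalized counts in early tumors 1 to 5. Early 1 stood near its background, at 1.12 times it, and early 5 was at 1.82 times its background. The late tumors 1 to 5 had 1077, 889, 671, 1231 and 905. The highest early tumor, early 3, stayed below the lowest late tumor, late 3, by a factor of 1.45. The mean was 205 ± 192 in early and 955 ± 211 in late tumors (SD, n = 5 each), a log2FC of -2.88 (SE 0.70, 95% confidence interval -4.44 to -1.32, limma BH-adjusted p = 0.0113, BY-adjusted p = 0.0818).

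TRBC, the beta chain constant region, was at 139, 967, 2495, 2954 and 415 normalized counts in early tumors 1 to 5 and at 10555, 7011, 5069, 8244 and 7091 in late tumors 1 to 5. Its highest early value was in early 4 and its lowest late value in late 3, 1.72-fold apart. The log2FC was -3.14 (SE 0.75, 95% confidence interval -4.79 to -1.48, limma BH-adjusted p = 0.0103, BY-adjusted p = 0.0746). Even early 1, the lowest tumor, was 6.36-fold above its background for TRBC.

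CD3E, the chain shared by both CD3 pairs, had 42.3, 716, 3402, 2090.4 and 275 normalized counts in early tumors 1 to 5, and 6134, 5024, 3853, 6011 and 5159.9 in late tumors 1 to 5. The gap between the stages was narrow, since late 3 exceeded early 3 by a factor of 1.13. The early tumors themselves spanned an 80.4-fold range. The log2FC of -3.18 therefore had an SE of 1.00 (95% confidence interval -5.39 to -0.96, limma BH-adjusted p = 0.0318, BY-adjusted p = 0.229).

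CD3D, the delta chain, was at 19.0, 300.2, 1177, 652 and 140.2 normalized counts in early tumors 1 to 5 and at 1894, 1993, 1616, 1973 and 1774 in late tumors 1 to 5. Early 1 was below its background, at 0.87 of it, so its value is not a measured level. The late tumors lay within a 1.23-fold range, the smallest of the 6 chains. The log2FC was -3.00 (SE 0.91, 95% confidence interval -5.01 to -0.99, limma BH-adjusted p = 0.0268, BY-adjusted p = 0.193).

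CD3G, the gamma chain, was at 22.2, 148, 575, 389 and 77.7 normalized counts in early tumors 1 to 5. Late tumors 1 to 5 had 829.8, 846, 642, 1009 and 791. Early 1 stood at its background (1.02-fold), and early 3 came within a factor of 1.12 of late 3. The log2FC was -2.51 (SE 0.74, 95% confidence interval -4.16 to -0.86, limma BH-adjusted p = 0.0250, BY-adjusted p = 0.181).

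CD247, the zeta chain, had 8.46, 25.4, 44.1, 44.5 and 11.4 normalized counts in early tumors 1 to 5, and 102, 89.6, 140.3, 113 and 116 in late tumors 1 to 5. Only early 3 and early 4 were above their background, by 1.36-fold and 1.26-fold, and the 5 early values rest on 6 to 27 recovered barcode counts. All late tumors were above background. The log2FC was -2.29 (SE 0.44, 95% confidence interval -3.27 to -1.30, limma BH-adjusted p = 0.00406, BY-adjusted p = 0.0293). With every value raised to at least the highest background of any tumor, the log2FC was -1.43 and the gene was still called, and with the mean of the negative probes subtracted it was -4.17 and was not (BY-adjusted p = 0.0699).

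**Figure D1:**
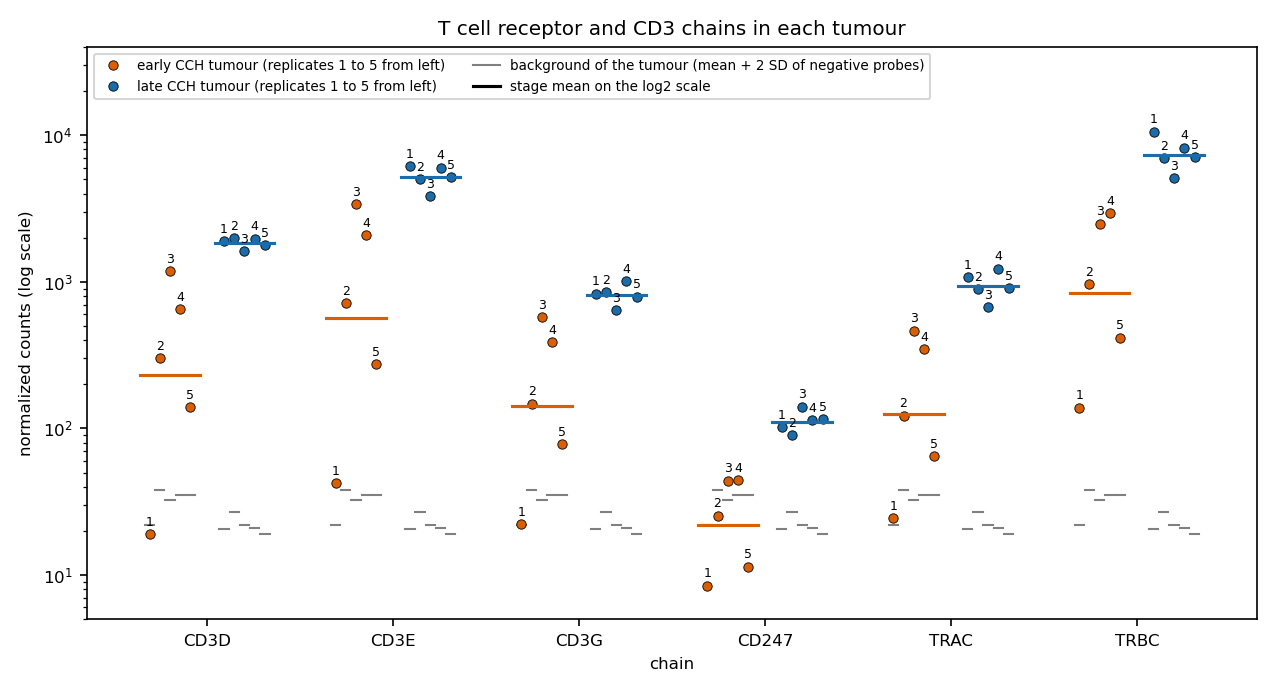
Normalized counts of the 6 chains in each tumor (vertical axis, log scale), with early tumors beside late tumors. Points are tumors, long bars are group means of the log2 values and thin ticks are each tumor's background. Early values spread widely below a tight late group, and most early CD247 values lie at or under background.

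The stages differed in spread as well as in level. The SD of the log2 values over early tumors was 2.51 for CD3E, 2.28 for CD3D, 1.85 for CD3G, 1.84 for TRBC, 1.73 for TRAC and 1.05 for CD247, against a median of 0.45 over all tested genes. CD3E and CD3D ranked 6 and 9 among the 761 genes in early spread. Without early 1, whose CD3D value was under background, the SD was 1.62 for CD3E (rank 25), 1.33 for CD3D (rank 54), 1.31 for CD3G and TRBC, 1.32 for TRAC and 0.89 for CD247, against a median of 0.41. Over late tumors the SD was 0.13 for CD3D and reached 0.39 for TRBC, with a median of 0.25 over the chains and 0.38 over all tested genes. Early 1 was lowest, followed by early 5 and early 2, in the 5 chains other than CD247, although early 1 was under background for CD3D. For CD247 these 3 tumors were all under background and have no order. In each chain early 3 and early 4 were the 2 highest.

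The mean of the 6 chains on the log2 scale put the early tumors below the late mean by very different amounts. The difference was -0.94 in early 3, -1.32 in early 4, -2.64 in early 2, -3.75 in early 5 and -5.51 in early 1. These sizes are approximate, since 4 of 6 chains were above background in early 1 and 5 of 6 in early 2 and early 5. The late tumors lay between 10.1 (late 3) and 10.6 (late 4). Late 3 was the lowest late tumor for 5 chains, and for CD247 it was the highest. Early 1 and early 5, the tumors with the lowest chains, shared an RNA extraction batch by the study's sample sheets, as did early 2 and early 4. The DV200 of early 1 was 68.9% and that of early 5 was 64.5%, the lowest of all. The part of extraction batch and RNA quality in the spread among early tumors was not tested.

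**Figure D2:**
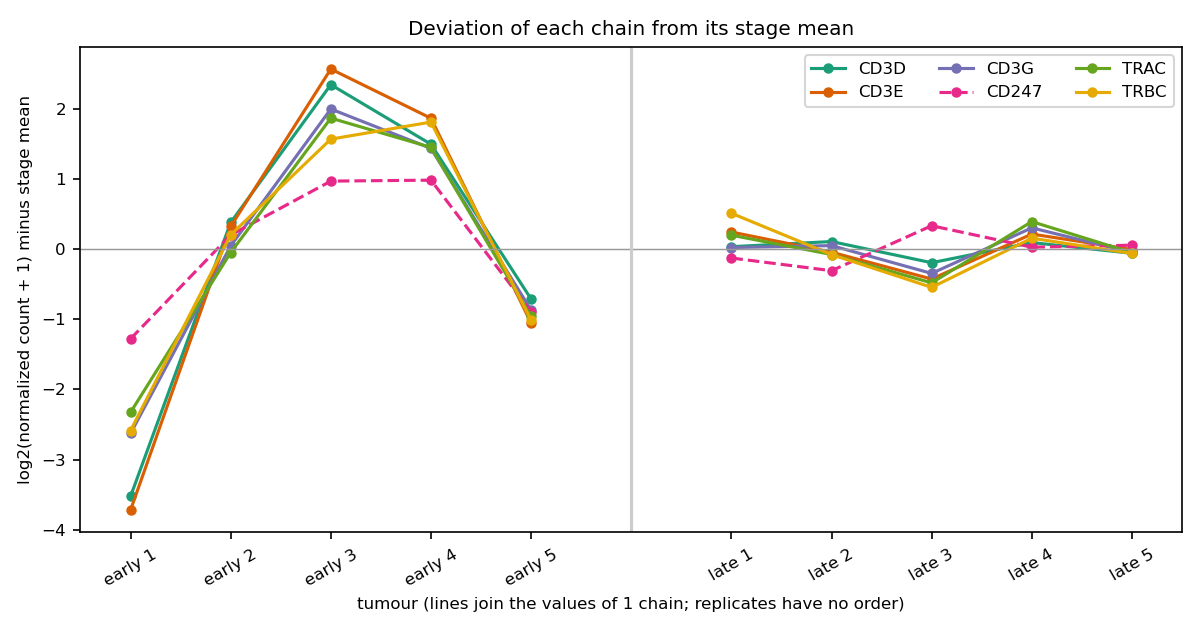
Log2 level of each chain in each tumor after the mean of its stage was subtracted (vertical axis), with one line per chain over the 10 tumors (horizontal axis). The lines of the early tumors fall and rise together over several log2 units, whereas those of the late tumors stay near 0.

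The chains other than CD247 co-varied across tumors beyond the difference in stage. After the stage mean was subtracted from each gene, Pearson's r over the 10 tumors was 0.904 to 0.995 for the 15 pairs of chains (median 0.975), and 15 of 15 pairs passed BH adjustment over the pairs in an exact permutation test within stages (two-sided, highest adjusted p = 0.0247). Spearman's rho was 0.648 to 0.976, and 10 of 15 pairs passed (exact permutation, highest adjusted p = 0.148). The 5 pairs that missed it were those with CD247, whose values in early 1, early 2 and early 5 were under background. The r of these pairs therefore rests in part on values that are not measured levels. Among late tumors CD247 was highest in late 3, where the other 5 chains were lowest. Early tumors supplied 95.1 to 99.7% of each chain's variance around the stage means, so the co-variation is mainly that of 5 early tumors. Without early 1 and early 3, the tumors farthest from the median, r was 0.793 to 0.990 over 8 tumors and 9 of 15 pairs passed. The CD247 pairs then had exact permutation BH-adjusted p = 0.325, and CD3D/TRBC also missed it (exact permutation BH-adjusted p = 0.0583). The chains of a tumor share its hybridization, depth and scaling factor.

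Ratios of chains within a tumor cancel its scaling factor, except at low values, where the added 1 and the probe background do not cancel. Since each probe has its own efficiency, only the difference of a log2 ratio between tumors can be read, not its size. None of the 15 log2 ratios differed between stages after BH adjustment over the 15 pairs (two-sided exact permutation test, lowest adjusted p = 0.0595), and 4 had an unadjusted p of at most 0.05. The smallest p that 5 tumors against 5 allow is 0.00794. All 4 involved CD3G. The CD3E/CD3G log2 ratio was 1.99 ± 0.67 in early and 2.66 ± 0.14 in late tumors (SD, n = 5 each, exact permutation p = 0.00794), and the CD3G/TRBC log2 ratio -2.55 ± 0.31 and -3.18 ± 0.28 (exact permutation p = 0.00794). Neither ratio overlapped between stages, but both gaps were narrow. CD3E/CD3G was 2.564 in early 3 and 2.569 in late 2, and CD3G/TRBC was -2.92 in early 4 and -2.98 in late 3. For CD3D/CD3G the difference, early minus late, was -0.49 and for CD3G/TRAC it was 0.37 (exact permutation p = 0.0238 each, adjusted p = 0.0893). CD3G had the smallest fold change of the 3 CD3 chains, and its early 1 value was at background. Without early 1, 3 ratios passed the adjustment (exact permutation adjusted p = 0.0397 each), CD3E/CD3G with a difference of -0.40, CD3G/TRAC with 0.45 and CD3G/TRBC with 0.64. The difference of CD3D/CD3G was then -0.27 and did not pass (exact permutation adjusted p = 0.119).

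For most ratios the spread over early tumors was smaller without early 1, but not for CD3D/CD3E, CD3G/TRBC and TRAC/TRBC. The SD of the log2 ratio was 0.10 to 0.31 over late tumors for the 10 pairs without CD247, the smallest being that of CD3E/TRAC. In early tumors the same pairs had SDs of 0.18 to 0.83, and of 0.063 to 0.48 without early 1, where 2 of the 10 (CD3D/TRAC and CD3G/TRAC) had a smaller SD than in late tumors. The 5 pairs with CD247 had SDs of 0.35 to 0.56 in late and 0.74 to 1.53 in early tumors (0.46 to 0.79 without early 1), where most CD247 values were under background.

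**Figure D3:**
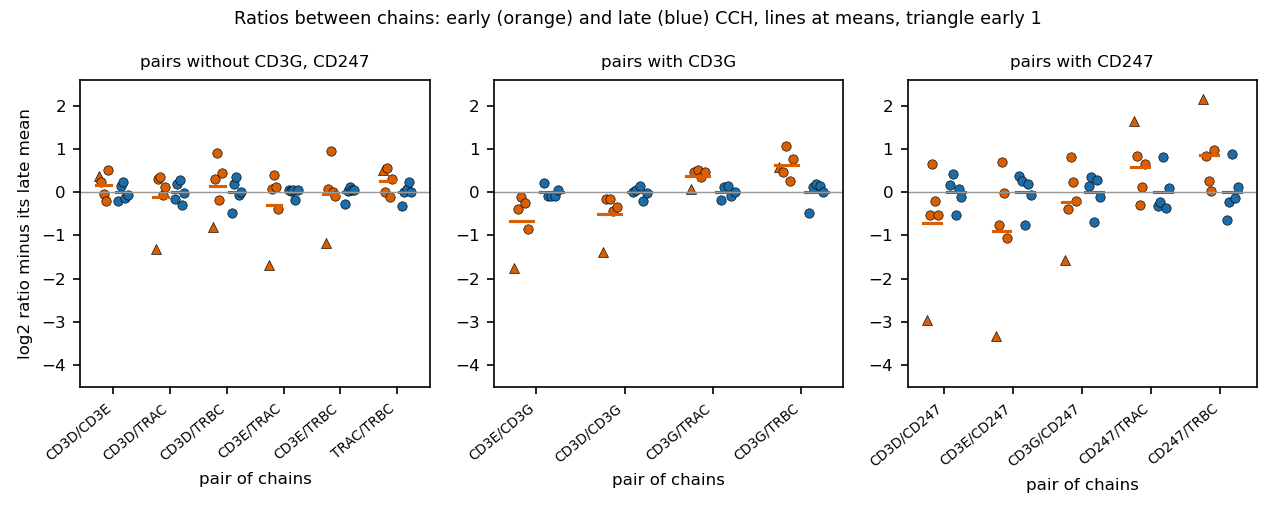
Log2 ratio of each pair of chains in each tumor minus the late mean of that ratio (vertical axis), by pair and stage, where points are tumors, the triangle is early 1 and bars are group means. CD3E/CD3G and CD3G/TRBC do not overlap between stages, though by narrow gaps, and the pairs with CD247 scatter most.

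The co-receptors bind MHC beside the TCR, CD8A and CD8B on cytotoxic and CD4 on helper T cells. All 3 passed BH adjustment with higher values in late tumors (27.3% of all tested genes), none overlapped between stages (19.2%), and CD4 was called (log2FC -2.86). CD8A had 34.9, 575, 1254, 1043 and 193 normalized counts in early tumors 1 to 5 and 4520 (late 1), 3226, 1384, 3639 and 3252 in late tumors 1 to 5, a log2FC of -3.09. CD8B had a log2FC of -2.72. As with 5 of the chains, late 3 was the lowest late tumor for CD8A and CD8B. After subtraction of the stage mean, r with the mean of the 6 chains was 0.965 for CD8A and 0.957 for CD8B but 0.636 for CD4, given as a description over 10 tumors. CD4 was at 33.9, 200.2, 130.3, 89.0 and 39.8 in early tumors 1 to 5, so that early 2 and not early 3 was the highest.

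The gamma chain constant regions belong to the alternative gamma-delta TCR, which uses the same CD3 chains. None of the 3 measured passed either rule. TRGC2 was at 36.0, 195, 962, 56.0 and 60.6 normalized counts in early tumors 1 to 5 and at 1898, 222, 358, 464 and 297 in late tumors 1 to 5 (log2FC -1.95, limma BH-adjusted p = 0.116). TRGC3 had a log2FC of -1.85 and TRGC8 of -1.38, and TRGC8 was above background in 1 early tumor. All 3 overlapped between stages. Their difference from the alpha-beta chains was not tested.

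Of 13 tested genes of TCR signaling, 8 passed BH adjustment and 4 were called, all with higher values in late tumors, against 27.3% and 9.2% of all tested genes. The median log2FC was -1.31. LCK, a kinase that phosphorylates the CD3 and zeta tails, had 61.4, 292, 1067, 865 and 133 normalized counts in early tumors 1 to 5 and 2510.3, 2125, 1440.0, 2054 and 1741 in late tumors 1 to 5, a log2FC of -2.72. Among the called genes were FYN and TXK (kinases) and PLCG1 (a phospholipase). The lowest of the list was the adaptor SH2D1A (log2FC -3.05) and the highest the calcium-dependent factor NFATC3 (0.22). ZAP70, the kinase that docks on phosphorylated zeta chains, did not reach the mean of 20 normalized counts required for testing.

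Of 29 surface molecules that tune T cell activation, 22 passed BH adjustment and 6 were called, all higher in late tumors (27.3% and 9.2% of all tested genes), with a median log2FC of -1.85. Among the called genes were CD5, CD6, CD27, LAG3 and SLAMF7. CD6 had the lowest log2FC (-3.23) and CD244, also a receptor of NK cells, the highest (0.99). CD28, the main co-stimulatory receptor of T cells, ranged from 19.0 (early 1) to 281 (early 3) normalized counts in early tumors and from 506 (late 3) to 764 (late 1) in late tumors. CD2, an adhesion receptor, reached 1630.2 in early 3 but stayed below every late tumor. Of 7 transcription factors of T cells, 2 passed BH adjustment, a share near that of all tested genes, and EOMES was called (log2FC -3.32), while GATA3 had a log2FC of 0.52. Of 7 cytotoxic granule genes, 6 passed and GZMK was called (-3.96), GZMA having the highest value (-1.52).

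**Figure D4:**
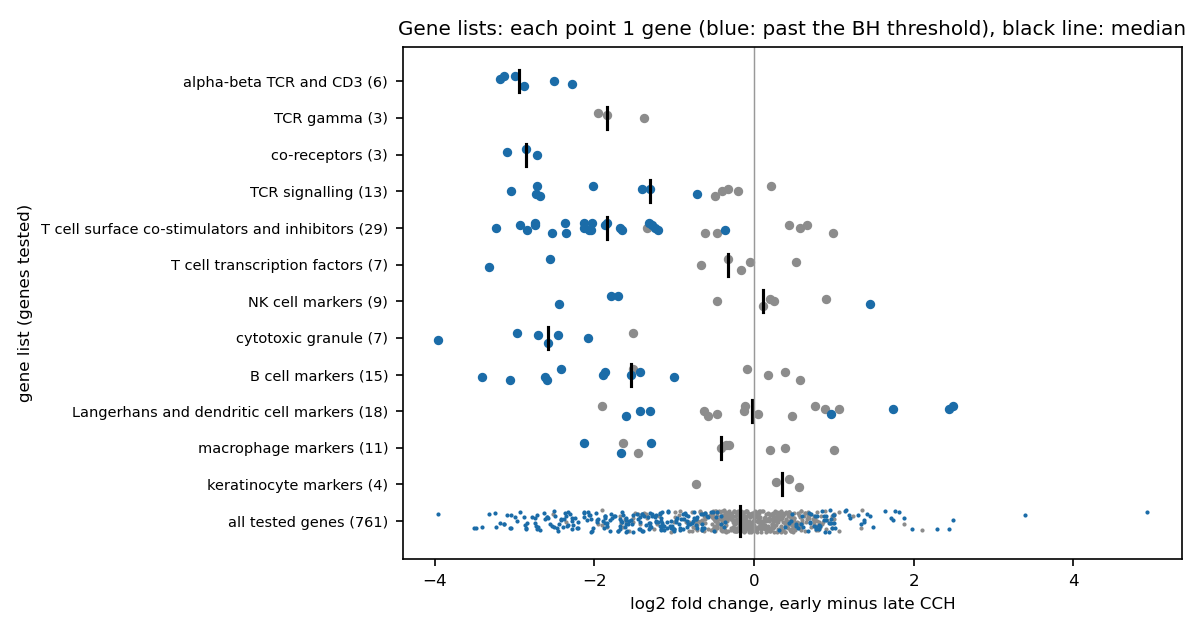
Log2 fold change (early minus late, horizontal axis) of every tested gene in the 6 chains and the 11 accompanying lists. Each point is a gene, colored where its BH-adjusted p was at most 0.05, and the bar of each row is the median of that list or, in the last row, of all tested genes. The chains and co-receptors lie farthest to the left as lists, and the markers of NK, dendritic cells and keratinocytes center near 0.

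**Figure D5:**
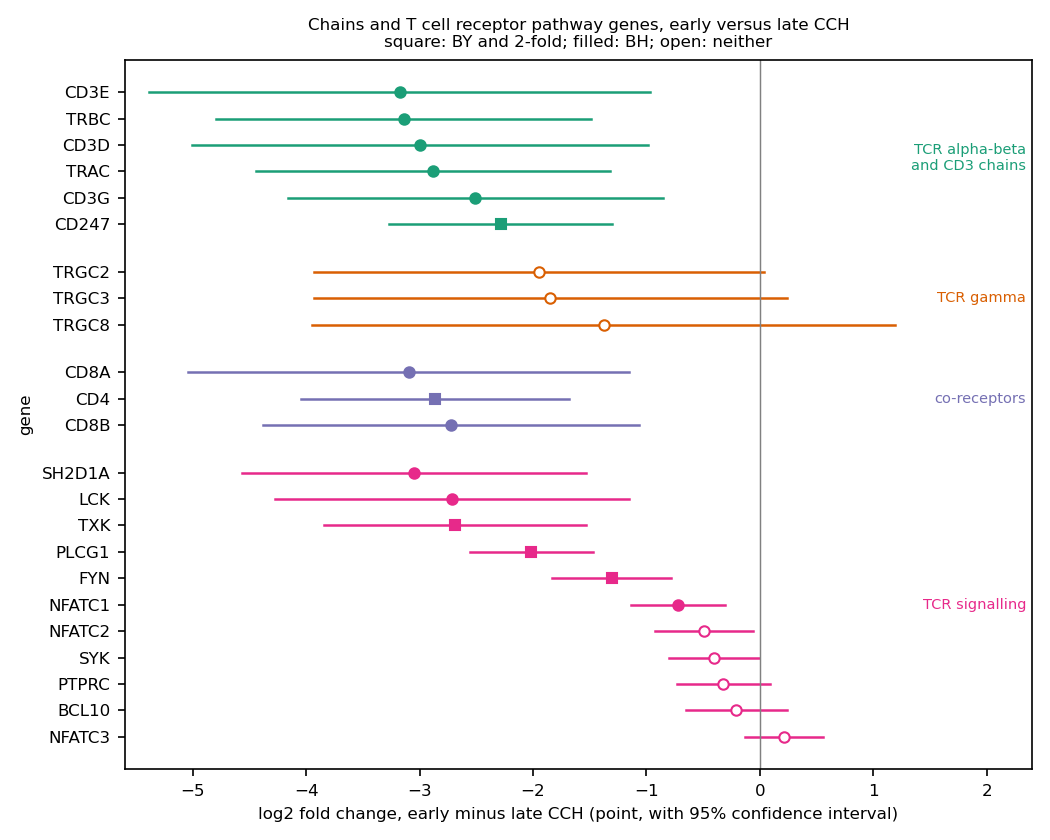
Log2 fold change (early minus late, horizontal axis) of the chains, co-receptors, gamma chains and most of the tested signaling genes, with the 95% confidence interval from limma as lines. Squares were called, filled symbols passed BH adjustment and open symbols passed neither. The interval of each of the 6 chains ends below 0, and those of the 3 gamma chains cross it.

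The 5 genes outside the chains whose stage-centered pattern was most like the chain mean were CD28 (r = 0.997), LCK (0.986), NLRC5, a regulator of MHC class I genes (0.980), BST2, an interferon-induced membrane protein (0.972), and ICOS, a co-stimulatory receptor (0.972). They are given as a description over 10 tumors, which rests mainly on the 5 early ones and in which all genes of a tumor share depth and scaling. Over the other tested genes r had a median of 0.21 and a 95th percentile of 0.89. NLRC5 had 227, 580.1, 799, 718 and 379 normalized counts in early tumors 1 to 5, the same order as CD3D, and 1259 to 1563 in late tumors. Its log2FC was -1.51, against -2.40 for BST2 and -2.75 for ICOS and CD28.

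Markers of other cell types are given against the 27.3% of all tested genes that passed BH adjustment with higher values in late tumors and the 8.41% with higher values in early tumors. Of 15 B cell markers, 10 passed with higher values in late tumors and CD79A was called, with summed levels of 2789 to 4598 normalized counts in early and 5353 to 21725 in late tumors. IGHM, the heavy chain of IgM, had the lowest log2FC (-3.41) and TNFRSF13C the highest (0.58). CD79B, which defines B cells, was above background in none of the early tumors. CD79A, CD22, CR2, TNFRSF13C, IGHM and IGHG were above background in all 5. Of the 15 markers, 7 were not above background in most early tumors. Of 9 NK markers, 3 passed with higher values in late tumors (NCR1 and KLRK1 called) and 1 in early tumors (TYROBP, called), with log2FC from -2.45 (KLRD1) to 1.45 (TYROBP, which myeloid cells also express). Their sum, 12752 to 16102 in early and 6465 to 9147 in late tumors, was carried largely by TYROBP (11077 to 14099 in early and 3958 to 5104 in late tumors). Without TYROBP the other 8 summed to 1070.3 to 2015 in early and 1686 to 4686 in late tumors. Of 11 macrophage markers, 3 passed with higher values in late tumors (CD68 called), with summed levels of 3412 to 12202 and 8583 to 15733, from C1QB (-2.14) to MRC1 (1.00). Of 18 Langerhans and dendritic cell markers, 3 passed with higher values in late and 4 in early tumors (FLT3 and FCER1A called, as 1.97% of all tested genes were in that direction), from CD209 (-1.90, not past the adjustment) to FLT3 (2.49). Their summed levels, 12232 to 17248 in early and 12349 to 15887 in late tumors, pool members that differed in opposite directions. None of 4 keratinocyte markers passed, from KRT7 (-0.73) to TP63 (0.56), with summed levels of 487 to 5873 in early and 666 to 3862 in late tumors. The part of these cell types in the level of the chains was not tested.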

How the data were processed

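Total RNA was extracted from FFPE tissue, treated with DNase I and hybridized to the nCounter Canine IO Panel. The deposited values are a signal that the authors normalized in nSolver, first to positive controls and then to housekeeping genes. No subtraction of background was stated. The panel's probe sequences are not given in the sources used here, so it is unknown which TRBC copies the TRBC probe detects. The 14 control rows were left unscaled. Dividing a tumor's gene values by their common step gave whole numbers (tolerance 0.0051) for at least 99.4% of genes. These recovered counts, used for depth and background only, cover counting error alone.

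Genes with a mean of at least 20 (761 of 800) were tested on log2(normalized count + 1) with limma 3.58.1 (R 4.3.3, lmFit and eBayes with trend, no covariate, late as baseline), after the study's BY threshold. The fold change understates that of low genes. Ratios and co-variation used exact permutation tests (Python 3.11.15, numpy 2.4.6). Scripts were tested on simulated data. Named genes were the 6 chains, the co-receptors and kinases listed, each list's highest and lowest member and the 5 genes most like the chain mean. Genes called in a list were named as well, as were the defining markers CD207 and CD79B, after their values were seen. The B cell markers above background in all early tumors were also named after their values were seen. A few genes of the lists are counted but not reported here by name. The members and lists were chosen with earlier results of these data known. Alternatives covered pseudocount, filter, scaling, variance trend, array weights, DV200, sex, replicate block, extraction batch, background treatment and single tumors left out. Gene symbols are those of the panel, and 4 of 6 chains (not TRAC and TRBC) matched an entry of RefSeq for UU_Cfam_GSD_1.0, where CD3G, CD3D and CD3E are neighbors.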

Additional observations from a re-analysis of the deposited data

Results flagged for a closer look

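In 6 of 64 groups of 5 tumors checked (9.38%, where chance gives about 5%), 1 tumor lay apart from the other 4. The CD8A log2 level of late 3 was 10.4, against 11.7 to 12.1 in the other late tumors. In early 1 the CD3D/CD3G log2 ratio was -0.21 (others 0.75 to 1.03) and the CD3D/TRAC log2 ratio -0.34 (others 0.91 to 1.34), and CD3D was below background there. In late 4 the CD3E/TRAC log2 ratio was 2.29, against 2.50 to 2.52 in the others. In late 1, whose TRBC value was the highest of all tumors, the CD3E/TRBC log2 ratio was -0.78 (others -0.48 to -0.40) and the CD3G/TRBC log2 ratio -3.67 (others -3.16 to -2.98).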

How the results depend on the processing

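The 6 chains were lower in early tumors under every alternative run, but how many of them passed the BY rule or BH adjustment moved with the setting. With DV200 as a covariate the log2FC of CD247 was -1.52, 0 chains were called, 0 passed BH adjustment, and over all tested genes 0 were called and 45 passed BH adjustment. The DV200 of late 5 was taken from its label, which differs from the study's RNA quality sheet. In male dogs only, CD247 was at -2.39, 0 chains were called and 3 passed BH adjustment, with 0 of all tested genes called and 133 past BH adjustment. With the replicate number as a block, CD247 kept -2.29 but its BY-adjusted p was 0.106, 0 chains and 1 of all tested genes were called, and 6 chains passed BH adjustment. The numbers do not pair the tumors, which came from different dogs. Deviations of same-numbered tumors correlated at -0.20 to 0.16, and 1 of 5 tumors correlated best with its own number. With array weights TRBC was at -2.83 and 2 chains were called. With BH in place of BY, 6 chains and 188 of all tested genes were called, at the same log2FC (CD3D -3.00, CD3E -3.18, CD3G -2.51, TRAC -2.88, TRBC -3.14). Among alternatives chosen after seeing the data, subtracting the negative probe mean gave -4.17 for CD247 and 0 called chains, and RNA extraction batch as a random block (consensus correlation within batches -0.14) gave -2.92 for TRAC, -3.18 for TRBC and 3 called chains. Geometric mean scaling, which moved the median log2FC of all tested genes from -0.18 to 0.21, left 2 called TCR signaling genes, 1 NK marker and 0 B cell markers, and a pseudocount of 10 left 2 B cell markers.

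Leaving out each tumor in turn gave log2FC of -2.53 to -1.97 for CD247, -3.35 to -2.30 for TRAC, -3.59 to -2.49 for TRBC, -3.59 to -2.12 for CD3D, -3.82 to -2.25 for CD3E and -3.01 to -1.85 for CD3G. From 0 to 3 chains were called, 3 without early 3 (CD247, TRAC, TRBC), 2 without early 4, 1 without early 1 and 0 otherwise. From 3 to 6 passed BH adjustment, 3 without early 5, late 1 or late 4, 4 without late 2 and 5 without late 5. Of all tested genes 39 to 98 were called and 211 to 269 passed BH adjustment. The count of log2 ratios that differed was 0 to 3 (3 without early 1) and was 3 with every value raised to the highest background and 0 with the negative probe mean subtracted, where CD3G/TRBC was 0.35 (exact permutation p = 0.190) and CD3E/CD3G -0.46 (exact permutation p = 0.0238). Co-varying pairs numbered 9 without early 1 and 9 without the 2 farthest tumors, and 10 under quantile normalization, where the 5 CD247 pairs were lost (r 0.706 to 0.822). The sign of 5 ratio differences depended on single tumors, with ranges of -0.24 to 0.18 for CD3D/TRAC, -0.054 to 0.37 for CD3D/TRBC, -0.47 to 0.054 for CD3E/TRAC, -0.29 to 0.25 for CD3E/TRBC and -0.48 to 0.12 for CD3G/CD247. CD3E/TRBC was 0.0014 with a pseudocount of 10. With the negative probe mean subtracted the sign turned for CD3D/CD3E (-0.0050), CD3D/CD247 (0.87), CD3D/TRBC (-0.11), CD3E/CD247 (0.88), CD3G/CD247 (1.34), CD247/TRAC (-0.94), CD247/TRBC (-0.99) and TRAC/TRBC (-0.046). None of these passed the adjustment, and the cause was not tested. CD247 was above background in 2 of 5 early tumors.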
